A study of Mus musculus with 14 samples.

Results

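Hepatocytes make glucose from lactate, amino acids and glycerol, release it into blood, take it up again, break it down and store it as glycogen. Here 9 genes of these steps are described in livers of mice made obese by diet, unoperated or after 2 kinds of gut surgery. They encode the gluconeogenic enzymes *Pck1*, *G6pc*, *Fbp1* and *Pcx*, the coactivator *Ppargc1a*, the glucokinase regulator *Gckr*, the liver pyruvate kinase *Pklr*, the glucose transporter *Slc2a2* (GLUT2) and the liver glycogen synthase *Gys2*. The genes were taken from the read count table by symbol. All 9 were among its 25212 genes and all 9 passed the filter on low counts, which left 14252 genes for testing. The RNA came from 14 livers of male C57BL/6 mice that became obese on a high-fat diet (HFD) and stayed on it, with 1 library per liver. DIO (diet-induced obesity) denotes 5 mice without surgery. GB-IL denotes 4 mice in which the gallbladder was joined to the ileum and the common bile duct was tied off. Bile thus entered the distal small bowel. RYGB denotes 5 mice with a Roux-en-Y gastric bypass. The labels give 8 weeks for all 3 groups, whereas a figure legend of the paper gives 4 weeks after surgery for the expression of some liver genes. The paper reports that GB-IL and RYGB mice lost weight and body fat and had less liver fat than DIO mice. No sham-operated, pair-fed or lean liver was analysed here. An operation as such, lower food intake, weight loss, loss of liver fat and the rerouting of bile or food therefore cannot be told apart. Whether the mice were fed or fasted when the livers were taken is not given in the sources used here.

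Gluconeogenesis runs from pyruvate, which pyruvate carboxylase (*Pcx*) turns into oxaloacetate and phosphoenolpyruvate carboxykinase (*Pck1*) into phosphoenolpyruvate, through fructose bisphosphatase (*Fbp1*) to free glucose, which the catalytic subunit of glucose-6-phosphatase (*G6pc*) releases. Fasting, glucagon and glucocorticoids raise the transcription of *Pck1* and *G6pc*, partly through CREB and the coactivator PGC-1α (*Ppargc1a*), and insulin lowers it. In the fed state glucose enters through GLUT2, is trapped by glucokinase, which the product of *Gckr* holds in the nucleus when glucose is low, and is stored by glycogen synthase or passed down glycolysis, whose last step pyruvate kinase (*Pklr*) carries out. The factor ChREBP (*Mlxipl*) raises *Pklr* transcription when glucose is plentiful.

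The bases before the start sites of 4 of these genes are shown as a description. In GB-IL livers 1 and 2 *Pklr*, *Slc2a2* and *Gckr* were low, and *Pck1* and *Ppargc1a* were high. The part of these sequences in the levels was not tested. RefSeq windows on GRCm38.p6 (mm10) were matched for 8 of the 9 genes and cut to the 250 bases before the start, and *Gys2* had none. Both strands were searched for TGACG (core of the cAMP response element), CACGTG (an E-box), TGTTTAC (the FOXO type) and TATAAA (the TATA box). Capitals mark the matches.
Pck1, chr2:173152823-173153072, plus strand: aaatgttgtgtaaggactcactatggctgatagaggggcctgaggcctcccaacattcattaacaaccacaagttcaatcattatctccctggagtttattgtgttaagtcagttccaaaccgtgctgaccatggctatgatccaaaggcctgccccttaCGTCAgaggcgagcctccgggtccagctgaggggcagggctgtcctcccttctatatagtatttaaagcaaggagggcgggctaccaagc
Ppargc1a, chr5:51567726-51567975, minus strand: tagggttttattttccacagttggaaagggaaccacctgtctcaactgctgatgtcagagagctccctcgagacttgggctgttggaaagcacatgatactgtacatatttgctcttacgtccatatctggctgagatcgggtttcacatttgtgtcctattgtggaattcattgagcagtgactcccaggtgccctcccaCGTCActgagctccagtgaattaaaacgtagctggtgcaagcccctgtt
Pklr, downstream start, chr3:89136373-89136622, plus strand: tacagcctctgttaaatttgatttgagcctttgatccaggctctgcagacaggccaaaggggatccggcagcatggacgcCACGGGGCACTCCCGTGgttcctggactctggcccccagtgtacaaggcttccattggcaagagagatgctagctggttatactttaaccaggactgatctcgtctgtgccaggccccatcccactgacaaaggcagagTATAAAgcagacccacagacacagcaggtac
Slc2a2, chr3:28697653-28697902, plus strand: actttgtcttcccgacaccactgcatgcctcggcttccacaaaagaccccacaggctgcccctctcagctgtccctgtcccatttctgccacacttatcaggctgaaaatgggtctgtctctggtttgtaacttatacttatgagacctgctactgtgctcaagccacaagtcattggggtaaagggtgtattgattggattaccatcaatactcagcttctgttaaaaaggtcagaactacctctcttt

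*Pck1* held the cAMP response element core from 90 bases before its start, and *Ppargc1a* from 49 bases before. These letters stood in 17.77% of all 32851 windows of this length. *Pklr* has 2 starts in RefSeq, and the window of the downstream one, the start known for liver, held a TATA box from 31 bases before it (12.37% of windows). It also held a pair of imperfect E-boxes, CACGGGNNNNNCCCGTG with the spacer in capitals too, from 170 bases before the start, the arrangement known as the carbohydrate response element that ChREBP binds. That motif was added after the sequence had been read, in the letters of the *Pklr* window, so a match there was certain. The *Pklr* window was the 1 window of the 32851 that held it. This does not show how common looser forms of the element are. The windows of *Gckr* and *Slc2a2* matched none of the letters searched. *G6pc* held a TATA box from 29 bases before its start and *Pcx* an E-box from 248 bases before (CACGTG stood in 6.021% and TGTTTAC in 3.166% of windows). A match of letters is a description of the sequence.

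Total counts per liver lay between 18223135 and 28656631. Levels are given as CPM, which scales a gene's count to the same library total in every liver, here by TMM (the trimmed mean of M-values of edgeR), and differences as log2 fold changes with their standard errors (SE) and p-values adjusted over all 14252 genes (quasi-likelihood test of edgeR, adjusted by Benjamini and Hochberg's method, with 0.05 as the limit of the false discovery rate, FDR). The leading principal component took 47.8% of the variance, and on it the livers GB-IL 1 and GB-IL 2 lay at -142 and -113, GB-IL liver 3 at -20.8, GB-IL liver 4 at 37.7, the DIO livers between 23.3 and 48.4 and the RYGB livers between -18.5 and 35.5. Sums of cell type markers are an exception to this scaling, here and below: they are CPM of the total counts of a liver, without TMM. Of 20 hepatocyte markers 19 were in the table and none was at 0 in any liver. Their sums were 155576 to 181110 CPM in DIO, 137153 to 178760 in GB-IL and 161588 to 194774 in RYGB. Summed macrophage markers (17 of 18 in the table) lay at 574 to 1007 CPM in DIO, 1150 to 2929 in GB-IL and 616 to 1452 in RYGB. Cholangiocyte markers (11 of 11) lay at 49.1 to 77.5 CPM in DIO, at 321, 262, 224 and 73.9 in the 4 GB-IL livers and at 77.2 to 97.8 in RYGB. Neutrophil markers (13 of 13, with *Ly6g* at 0 in every DIO liver) lay at 6.33 to 12.7 CPM in DIO, at 125, 65.8, 475 and 7.65 in GB-IL, at 167 in RYGB liver 5 and at 9.49 to 14.5 in the other RYGB livers. GB-IL liver 1 also carried 1961 CPM of 12 skeletal muscle markers and 1500.5 CPM of pancreas markers (8 of 12 in the table), against at most 4.01 and 37.2 in any other liver. Stellate cell markers (14 of 14) reached 990 CPM in GB-IL liver 1 and 848 in RYGB liver 5 (DIO 258 to 396), endothelial markers (10 of 11) reached 882 in RYGB liver 5 (DIO 327 to 455), and B and T cell markers (15 of 16) stayed between 5.29 and 26.3 CPM in all livers. The part these had in the values below was not tested.

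None of the 9 genes passed the FDR in any comparison with the model of all 14 livers. Among all genes tested 3.26% passed it in GB-IL compared with DIO, 0% in RYGB compared with DIO and 0% in GB-IL compared with RYGB. At an unadjusted p under 0.05, 4 of the 9 genes differed in GB-IL (*Pck1* and *Ppargc1a* higher, *Gckr* and *Pklr* lower), where 23.1% of all genes did (16.7% higher, 6.43% lower), and 2 differed in RYGB (*Fbp1* and *Gys2*, both lower), where 8.71% of all genes did (5.35% higher, 3.36% lower). Between GB-IL and RYGB it was 0 of 9, with 22.1% of all genes (15.3% higher, 6.77% lower). No overlap with the DIO livers was seen for 1 of the 9 genes in GB-IL, which was lower (*Pklr*), where 4.17% of all genes showed none (2.67% higher, 1.51% lower). In RYGB it was 2, both lower (*Gckr* and *Pklr*), where 3.53% did (1.87% higher, 1.66% lower), and between GB-IL and RYGB 0, where 2.84% did (1.27% higher, 1.57% lower). Over the 9 genes the median difference was -0.34 on the log2 scale in GB-IL and -0.29 in RYGB, beside 0.04 and 0.01 over all genes tested. Both comparisons use the same 5 DIO livers. The 9 genes were chosen with earlier results of these data known, and their shares are given as a description. In liver RNA of this kind, fewer cells of a type and less RNA per cell cannot be told apart.

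**Figure D1:**
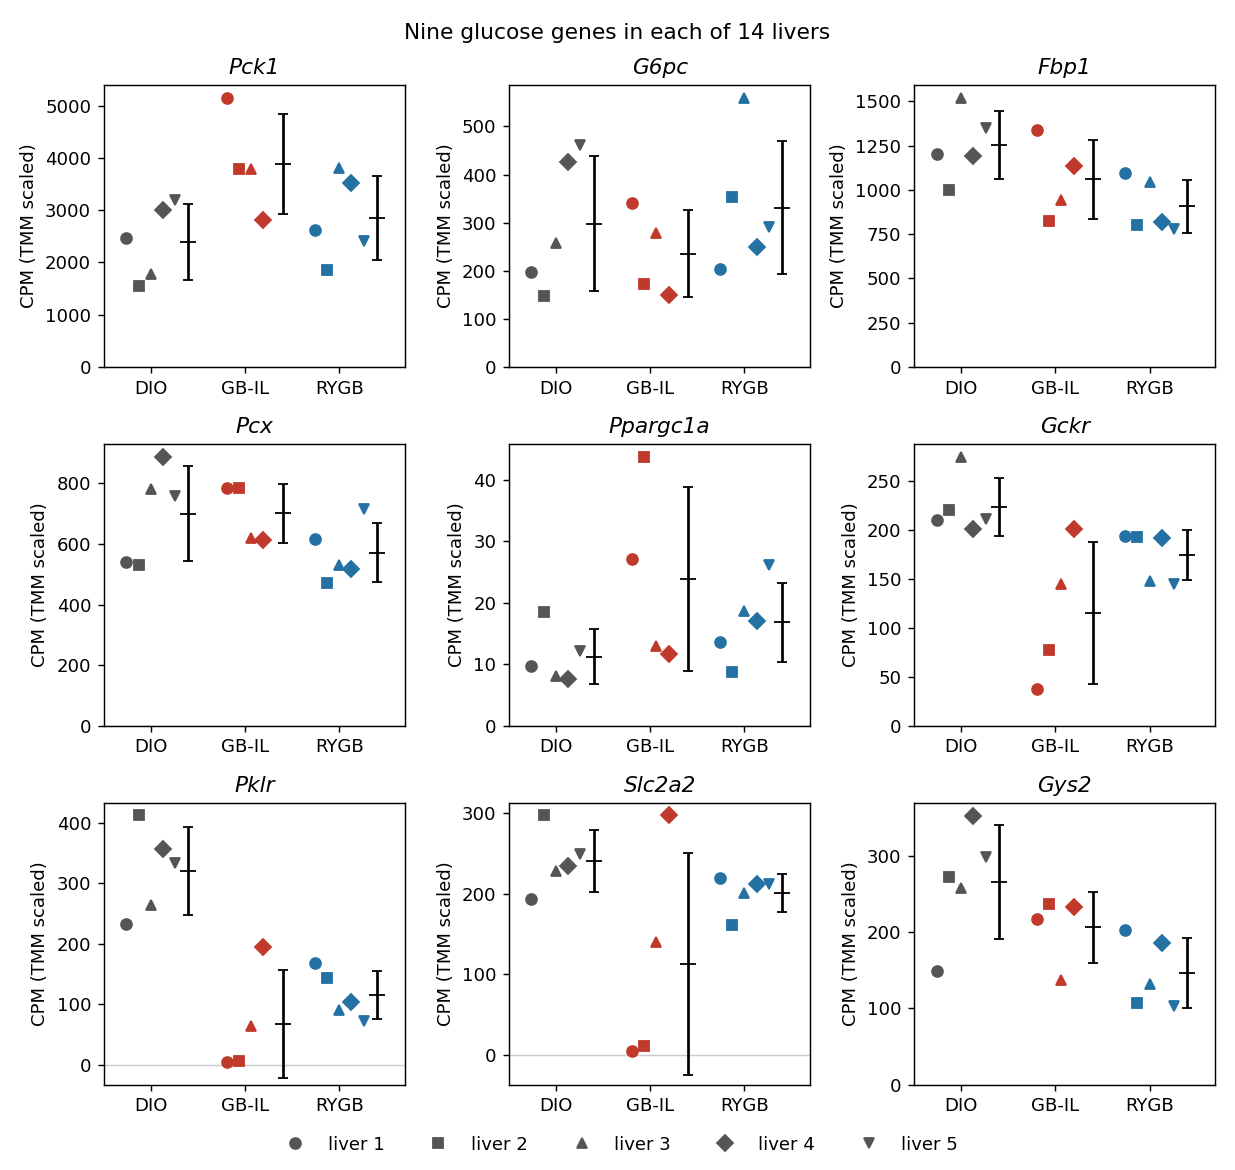
Level of each of the 9 glucose genes in every liver (vertical axis, TMM-scaled CPM, different in each panel), by group. Symbols mark the liver number, and the black bars give the mean and SD of the group. Pklr lay between 233 and 413 CPM in DIO and below 195 CPM in all 9 operated livers, whereas G6pc and Pcx overlapped between all groups.

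*Pklr* (ENSMUSG00000041237, chr3:89136142-89146784, plus strand) differed most. Its levels were 233, 413, 264, 358 and 334 CPM in the 5 DIO livers, 3.68, 6.44, 64.3 and 194 CPM in the 4 GB-IL livers and 167, 143, 90.7, 103 and 72.0 CPM in the 5 RYGB livers. All 9 operated livers lay below every DIO liver, a pattern that 0.274% of all genes tested showed. GB-IL livers 1 and 2 held 1.15% and 2.01% of the DIO mean, from 70 and 114 counts. The fitted log2 fold change came to -2.25 in GB-IL (SE 0.82, 95% interval -4.00 to -0.50, adjusted p = 0.1302) and -1.47 in RYGB (SE 0.74, 95% interval -3.04 to 0.10, adjusted p = 0.593). The spread within GB-IL was large, with a coefficient of variation of 133% against 22.7% in DIO and 33.9% in RYGB. The result for *Pklr* depended on the model. With GB-IL it passed the FDR with DESeq2 (adjusted p = 0.0293), with voom and sample quality weights (adjusted p = 0.0172) and without GB-IL liver 4 (log2 fold change -3.69, adjusted p = 0.00585), and in RYGB with a fit of the 2 groups alone (adjusted p = 0.0321) and with voom (adjusted p = 0.0236). Without GB-IL livers 1 and 2 the difference between GB-IL and DIO was -1.32 on the log2 scale (adjusted p = 0.253). These models differed in how many of all genes they called. DESeq2 called 8.06% in GB-IL, 0.596% in RYGB and 5.44% between GB-IL and RYGB, and voom 4.13%, 11.9% and 0.807%. The fit of 2 groups called 0.242% in RYGB, and leaving out GB-IL liver 4 gave 24.6% in GB-IL and 21.5% between GB-IL and RYGB. Under the other scalings and filters, which called none of the 9 genes, the share called in GB-IL was 3.22% with RLE scaling, 2.54% with total counts, 2.68% with scaling to hepatocyte markers, 2.12% with no filter and 3.08% with a mean of at least 50 counts.

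*Slc2a2* (ENSMUSG00000027690, chr3:28697903-28731359, plus strand), the transporter that carries glucose in and out of hepatocytes, was at 193, 298, 228, 235 and 249.7 CPM in DIO. The 4 GB-IL livers ran from almost none to the upper end of DIO, at 4.04, 10.7, 140.1 and 297 CPM. Livers 1 and 2 thus held 1.68% and 4.46% of the DIO mean, from 77 and 190 counts, while liver 4 held 124%. In RYGB the levels were 219, 161, 200.2, 211 and 212 CPM, 1 of them below every DIO liver. On the log2 scale the difference from DIO was -1.09 in GB-IL (SE 0.79, adjusted p = 0.392) and -0.26 in RYGB (SE 0.72, adjusted p = 0.938). Albumin (*Alb*), the main secreted product of hepatocytes, was also below every DIO liver in 3 of the 4 GB-IL livers, in livers 1 and 2 by far less than *Slc2a2*, at 69894, 87465, 57306 and 92394 CPM in GB-IL and 91668 to 107942 CPM in DIO. The count of *Slc2a2* per count of *Alb* was 5.79e-05, 0.000123, 0.00244 and 0.00322 in the GB-IL livers and between 0.00182 and 0.00325 in the other 10. Summed hepatocyte markers in GB-IL livers 1 and 2 were 173635 and 178760 CPM of total counts, beside 155576 to 181110 in DIO. These sums are without TMM, and so not on the scale of the *Alb* and *Slc2a2* levels above. Leaving out GB-IL livers 1 and 2 brought the *Slc2a2* difference between GB-IL and DIO to -0.15 (adjusted p = 0.980), and leaving out GB-IL liver 4 brought it to -2.22 (adjusted p = 0.0535).

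*Gckr* (ENSMUSG00000059434, chr5:31297443-31327314, plus strand), whose product binds glucokinase in the nucleus at low glucose, was at 209.7, 221, 274, 201 and 211 CPM in DIO and at 37.2, 77.8, 145 and 201 CPM in GB-IL. The order of the 4 GB-IL livers was that of *Pklr* and *Slc2a2*, with liver 1 lowest and liver 4 highest, and liver 4 alone overlapped the DIO livers. The RYGB levels were 194, 193, 148, 192 and 145 CPM, all 5 below the lowest DIO liver. The log2 fold change of *Gckr* was -0.96 in GB-IL (SE 0.35, adjusted p = 0.134) and -0.36 in RYGB (SE 0.33, adjusted p = 0.789). Without GB-IL liver 4 it was -1.37 in GB-IL (adjusted p = 0.0110), and without GB-IL livers 1 and 2 it was -0.39 (adjusted p = 0.7096).

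**Figure D2:**
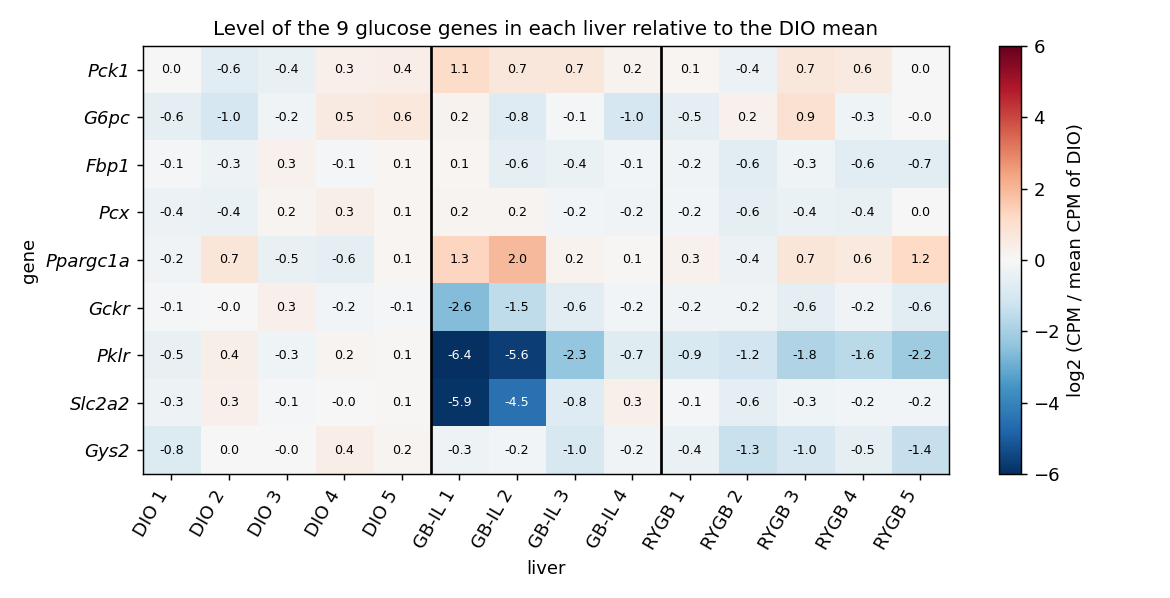
Level of the 9 glucose genes (rows) in each liver (columns) as the log2 ratio of its CPM to the mean CPM of the 5 DIO livers. GB-IL livers 1 and 2 stood at -6.4 and -5.6 for Pklr and at -5.9 and -4.5 for Slc2a2, whereas GB-IL liver 4 stood at -0.7 and 0.3.

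*Pck1* (ENSMUSG00000027513, chr2:173153048-173159273, plus strand), the enzyme that commits oxaloacetate to glucose, was at 2469.6, 1547, 1777, 2997 and 3189.9 CPM in DIO and at 5139, 3792, 3786 and 2815 CPM in GB-IL. It was higher in 3 of the 4 GB-IL livers than in any DIO liver, and highest in liver 1, where *Pklr*, *Slc2a2* and *Gckr* were lowest. The RYGB levels of 2621, 1864, 3810.2, 3526 and 2408 CPM overlapped both other groups. Relative to DIO it differed by 0.70 on the log2 scale in GB-IL (SE 0.29, 95% interval 0.07 to 1.32, adjusted p = 0.175) and 0.25 in RYGB (SE 0.28, adjusted p = 0.833).

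*G6pc* (ENSMUSG00000078650, chr11:101367561-101377903, plus strand), the last enzyme of glucose release, did not show the order of *Pck1*. Its levels were 198, 147, 257, 426 and 462 CPM in DIO, 341, 173, 278 and 149 CPM in GB-IL and 204, 353, 558, 249 and 291 CPM in RYGB. The groups overlapped throughout, and the log2 fold changes were -0.34 in GB-IL (95% interval -1.16 to 0.48, adjusted p = 0.582) and 0.15 in RYGB (95% interval -0.62 to 0.92, adjusted p = 0.931). The count of *Pck1* per count of *G6pc* within a liver was 15.1, 22.0, 13.6 and 18.9 in the GB-IL livers, 12.5, 10.5, 6.91, 7.03 and 6.91 in DIO and 12.9, 5.29, 6.82, 14.2 and 8.27 in RYGB, so that every GB-IL liver lay above every DIO liver.

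*Fbp1* (ENSMUSG00000069805, chr13:62864753-62888282, minus strand), which removes a phosphate from fructose bisphosphate, was at 1204, 1000.3, 1517, 1191 and 1352 CPM in DIO, 1337, 824, 946 and 1133 CPM in GB-IL and 1096, 802, 1046, 819 and 777 CPM in RYGB. In RYGB 3 of 5 livers and in GB-IL 2 of 4 lay below every DIO liver. Fitted log2 fold changes were -0.46 in RYGB (SE 0.20, adjusted p = 0.547) and -0.24 in GB-IL (SE 0.21, adjusted p = 0.478). *Pcx* (ENSMUSG00000024892, chr19:4510472-4621752, plus strand), the mitochondrial entry enzyme, was at 542, 530.0, 782, 887 and 759 CPM in DIO, 786, 786, 618 and 613 CPM in GB-IL and 618, 470.1, 532, 518 and 717 CPM in RYGB. The means of DIO and GB-IL, 699.9 and 701 CPM, were nearly equal, with a log2 difference of 0.00 and an interval of -0.45 to 0.46 (95%, adjusted p = 0.996). In RYGB the log2 fold change of *Pcx* was -0.29 (SE 0.20, adjusted p = 0.708). With voom and sample quality weights *Fbp1* and *Pcx* passed the FDR in RYGB.

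*Ppargc1a* (ENSMUSG00000029167, chr5:51454250-51567726, minus strand), the coactivator that drives the gluconeogenic program in fasting, was at 9.79, 18.5, 8.14, 7.64 and 12.1 CPM in DIO, 27.2, 43.7, 12.9 and 11.7 CPM in GB-IL and 13.6, 8.68, 18.6, 17.0 and 26.1 CPM in RYGB. GB-IL livers 1 and 2 lay above every DIO liver, and livers 3 and 4 lay within the DIO range. Its log2 difference from DIO was 1.08 in GB-IL (SE 0.40, 95% interval 0.23 to 1.94, adjusted p = 0.135) and 0.58 in RYGB (SE 0.38, adjusted p = 0.697). Without GB-IL liver 4 the first was 1.30 (adjusted p = 0.0290) and without GB-IL livers 1 and 2 it was 0.11 (adjusted p = 0.992).

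*Gys2* (ENSMUSG00000030244, chr6:142422613-142473109, minus strand), the liver enzyme that lengthens glycogen, had the smallest p-value of the 9 genes in RYGB. Its levels were 149, 273, 259, 353 and 299.6 CPM in DIO and 204, 107, 132, 186 and 103 CPM in RYGB, 3 of the 5 RYGB livers below every DIO liver. The log2 fold change in RYGB was -0.86 (SE 0.26, 95% interval -1.43 to -0.30, adjusted p = 0.410), the 181st smallest p-value of all genes tested. GB-IL livers were at 218, 237, 138 and 233 CPM, with a mean between those of the other groups and a log2 fold change of -0.37 (SE 0.28, adjusted p = 0.413). With voom and sample quality weights *Gys2* passed the FDR in RYGB (log2 fold change -0.96, adjusted p = 0.0152).

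Compared directly, GB-IL and RYGB livers differed in none of the 9 genes at the FDR. The log2 differences of GB-IL over RYGB were -0.83 for *Slc2a2* (95% interval -2.49 to 0.84), -0.78 for *Pklr* (-2.44 to 0.88), -0.60 for *Gckr* (-1.34 to 0.14) and -0.49 for *G6pc* (-1.31 to 0.33). They were 0.50 for *Ppargc1a* (-0.35 to 1.35), 0.49 for *Gys2* (-0.10 to 1.09), 0.45 for *Pck1* (-0.17 to 1.07), 0.30 for *Pcx* (-0.16 to 0.75) and 0.22 for *Fbp1* (-0.23 to 0.67). All 9 intervals held 0, and the widest, those of *Slc2a2* and *Pklr*, left room for a large difference. Without GB-IL liver 4 *Gckr* (log2 difference -1.02, adjusted p = 0.0411) and *Pklr* (-2.22, adjusted p = 0.0423) passed the FDR. Without GB-IL livers 1 and 2 the sign turned for *Pklr* (0.15), *Slc2a2* (0.11) and *Ppargc1a* (-0.48), and *Gckr* was at -0.03.

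**Figure D3:**
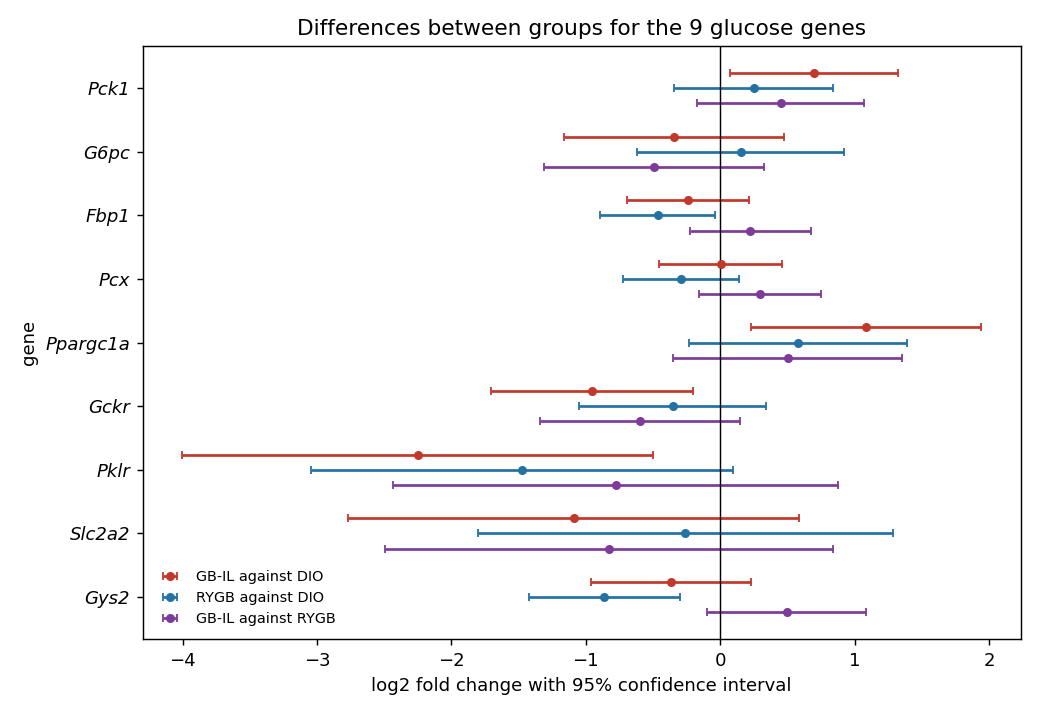
Fitted log2 fold change of each of the 9 glucose genes (rows) with its 95% confidence interval (horizontal axis), for GB-IL against DIO, RYGB against DIO and GB-IL against RYGB. The intervals of Pck1 and Ppargc1a lie above 0 and those of Gckr and Pklr below 0 in GB-IL, and those of Fbp1 and Gys2 below 0 in RYGB, before adjustment over all genes.

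Within a liver, the ratio of *Pck1* to *Pklr* counts sets the enzyme that makes phosphoenolpyruvate against the enzyme that consumes it, without any scaling between livers. It was 10.6, 3.74, 6.74, 8.38 and 9.56 in DIO, 15.6, 13.03, 42.0, 34.1 and 33.5 in RYGB and 1398, 589, 58.8 and 14.5 in GB-IL. All 9 operated livers lay above every DIO liver, and GB-IL livers 1 and 2 lay highest. *Slc2a2* per *Pklr* was 0.831, 0.721, 0.864, 0.656 and 0.748 in DIO, 1.10, 1.67, 2.18 and 1.53 in GB-IL and 1.31, 1.12, 2.21, 2.04 and 2.95 in RYGB, with no overlap between operated and DIO livers. In GB-IL livers 1 and 2 both genes were near 0, and their ratios lay beside an RYGB range of 1.12 to 2.95. *Pklr* per *Gckr* ran from 0.961 to 1.87 in DIO, and the GB-IL livers had 0.0989, 0.0827, 0.444 and 0.967. The RYGB livers had 0.862, 0.741, 0.612, 0.538 and 0.495, all below every DIO liver. For *G6pc* per *Gckr* the range was 0.665 to 2.18 in DIO, against 9.18, 2.22, 1.92 and 0.740 in the GB-IL livers. The pairs were chosen after the levels had been seen, and the ratios are given as a description. *Pck1* per *Pklr* and *Slc2a2* per *Pklr* both hold *Pklr*, which by itself lay below every DIO liver in all 9 operated livers. Neither separation therefore stands apart from that of *Pklr*.

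**Figure D4:**
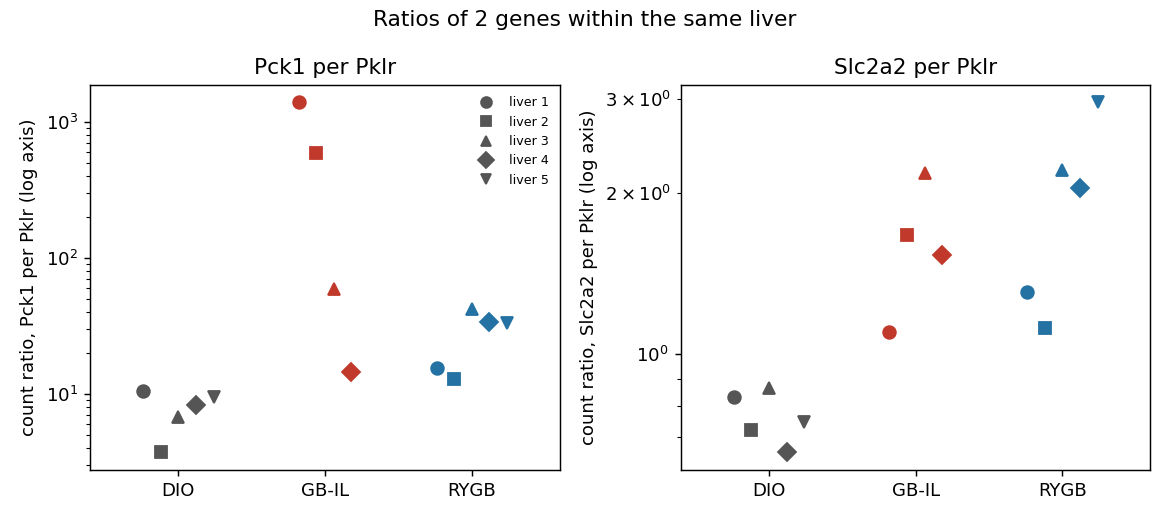
Counts of Pck1 per count of Pklr (left) and of Slc2a2 per count of Pklr (right) in each liver, on log axes, with symbols by liver number. Pck1 per Pklr lay between 3.74 and 10.6 in DIO, between 13.03 and 42.0 in RYGB and between 14.5 and 1398 in GB-IL.

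Levels can be set against each other between genes only per length. Per kilobase of exon (GENCODE M21), the DIO means were 736 ± 114 CPM for *Fbp1*, 699 ± 211 for *Pck1*, 147 ± 33.1 for *Pcx*, 123 ± 57.8 for *G6pc*, 100.3 ± 28.2 for *Gys2*, 98.9 ± 22.5 for *Pklr*, 51.5 ± 6.78 for *Gckr*, 41.8 ± 6.63 for *Slc2a2* and 1.70 ± 0.671 for *Ppargc1a* (SD, n = 5). *Fbp1* and *Pck1* lay within their spread of each other, as did *Pcx* and *G6pc*, and *Gys2* and *Pklr*. In GB-IL *Pck1* led at 1132 ± 279 CPM per kilobase and *Fbp1* stood at 623 ± 132, while *Pklr* and *Slc2a2* stood at 20.8 ± 27.6 and 19.6 ± 23.97 (SD, n = 4). The genes also differed in how much livers of a group varied. In DIO the coefficient of variation ran from 13.1% for *Gckr* to 46.8% for *G6pc*, and in RYGB from 11.7% for *Slc2a2* to 41.9% for *G6pc*. In GB-IL it ran from 14.03% for *Pcx* to 122% for *Slc2a2* and 133% for *Pklr*.

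The genes whose log2 CPM over the 14 livers was most like that of each of the 9 were found among 12687 genes with a mean of at least 1 CPM, by Pearson's r as the measure of likeness. The livers share group and library, GB-IL livers 1 and 2 stand far from the rest, and r is therefore given also for the other 12 livers. *Slc2a2* was most like *Pcyox1* (0.987, and 0.815 over 12 livers), *Gckr* like *Acy3* (0.983, and 0.891), and *Pklr* like the gene listed as *LRRC8A* (0.977, and 0.873). *Pcx* was most like *Aifm2* (0.910, and 0.906), *Ppargc1a* like *Rragd* (0.898, and 0.782), *Gys2* like *Bri3* (0.880, and 0.885) and *Pck1* like *Tnfrsf1b* (0.878, and 0.840). *Fbp1* was most like *Terf2ip* (0.871, and 0.841), and *G6pc* like *Ryk* (0.760, and 0.732). Among the 9 genes themselves the closest pair was *Gckr* and *Pklr* (0.951, and 0.822 over 12 livers), whereas *Gckr* and *Slc2a2* had 0.945 over all livers and 0.506 over 12. *Gys2* went the other way, with 0.172 to *Pklr* over all livers and 0.816 over 12. To *Slc2a2* it had -0.061 and 0.695, and to *Gckr* 0.074 and 0.669.

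Beyond these 9 genes, 5 lists of 127 genes in all covered other steps of glucose metabolism and its control, of which 125 were in the table and 119 were tested. With GB-IL against DIO 10 of them rose and 1 fell at the FDR, 9.24% of those tested beside 3.26% of all genes (3.15% higher, 0.112% lower). With RYGB against DIO and GB-IL against RYGB it was 0 of 119. The lists were chosen with earlier results of these data known, so their shares are given as a description. At an unadjusted p under 0.05 the lists had 47 genes in GB-IL (39.5%, beside 23.1% of all genes), 20 in RYGB (16.8%, beside 8.71%) and 32 between GB-IL and RYGB (26.9%, beside 22.1%). The median log2 fold change over the lists was 0.04 in GB-IL, as over all genes tested (0.04), and -0.10 in RYGB. The split between higher and lower list genes in GB-IL depended on the model. It was 22 higher and 8 lower by DESeq2, 7 and 6 by voom, and 30 and 23 without GB-IL liver 4. Over all genes it was 1164 and 183 by DESeq2, 510 and 79 by voom, and 2228 and 1344 without GB-IL liver 4. The 11 calls in GB-IL also depended on single livers. None was left without any 1 of the 5 DIO livers, without GB-IL liver 1, without GB-IL liver 2 or without both of these, 6 genes passed without RYGB liver 1 and 3 without RYGB liver 2, 3 or 4, whereas 53 genes passed without GB-IL liver 4.

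Of 24 tested genes of gluconeogenic and shared triose steps 1 rose in GB-IL (4.17%, beside 3.26% of all genes called in either direction). This was *Sdsl*, a serine dehydratase-like enzyme, at 116, 115, 16.3 and 5.98 CPM in GB-IL and 9.03 ± 3.43 (SD, n = 5) CPM in DIO (log2 fold change 2.81, SE 0.70, adjusted p = 0.0422). *Gpt*, the alanine aminotransferase that supplies pyruvate, was at 219.7, 232, 509, 439 and 385 CPM in DIO, 324, 503, 373 and 259 CPM in GB-IL and 317, 199, 211, 218 and 199.6 CPM in RYGB, with a log2 difference of 0.67 between GB-IL and RYGB (adjusted p = 0.188). *Slc37a4*, which carries glucose 6-phosphate to *G6pc* inside the endoplasmic reticulum, was at 132 ± 41.2 (SD, n = 5) CPM in RYGB and 285 ± 120.2 (SD, n = 5) CPM in DIO (log2 fold change -1.11, adjusted p = 0.348). *Ldhb*, a lactate dehydrogenase subunit, was at 21.5, 8.75, 2.84 and 1.77 CPM in GB-IL and 2.28 ± 0.525 (SD, n = 5) CPM in DIO (log2 fold change 1.93, adjusted p = 0.0612).

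Of 24 tested genes of glycolytic entry and its control 3 rose and 1 fell in GB-IL (16.7%, beside 3.26% of all genes). The hexokinase *Hk2*, which is low in normal hepatocytes, was at 10.1, 2.65, 6.91 and 2.73 CPM in GB-IL, all 4 above the DIO livers at 1.36, 1.77, 1.73, 1.41 and 0.913 CPM (log2 fold change 1.96, SE 0.50, adjusted p = 0.0480). In RYGB livers 1 and 5 it was 3.83 and 6.85 CPM and in the others 1.43 to 1.87. *Pdp1*, a phosphatase that activates pyruvate dehydrogenase, showed a log2 difference of 1.92 in GB-IL (adjusted p = 0.0398), from 0.920 ± 0.390 (SD, n = 5) CPM to 3.50 ± 2.13 (SD, n = 4) CPM. *Pfkfb4*, which makes and removes a sugar bisphosphate that activates phosphofructokinase, had 1.80 (adjusted p = 0.0415), from 0.979 ± 0.381 (SD, n = 5) CPM to 3.43 ± 1.92 (SD, n = 4) CPM. *Pfkm*, a phosphofructokinase subunit, fell in GB-IL to 14.9, 12.7, 15.1 and 14.3 CPM, from 19.7, 20.7, 24.2, 18.5 and 21.6 CPM in DIO (log2 fold change -0.56, SE 0.14, adjusted p = 0.0426), and was at 15.9, 17.2, 12.6, 14.7 and 15.1 CPM in RYGB (log2 fold change -0.47, adjusted p = 0.348). All 9 operated livers lay below every DIO liver for *Pfkm*, as they did for *Pdhb*, a pyruvate dehydrogenase subunit, at 132 ± 23.8 (SD, n = 5) CPM in DIO, 77.9 ± 21.6 (SD, n = 4) CPM in GB-IL and 82.6 ± 15.8 (SD, n = 5) CPM in RYGB. *Pdk3*, a kinase that restrains pyruvate dehydrogenase, showed a log2 difference of 1.48 in GB-IL (adjusted p = 0.0889). *Txnip*, a gene that responds to glucose, had 0.27 in GB-IL (adjusted p = 0.690) and -0.86 in RYGB (adjusted p = 0.569).

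Of 25 tested genes of glycogen synthesis and breakdown 2 rose in GB-IL (8%, beside 3.26% of all genes called in either direction). *Ppp1r3g*, a subunit that directs protein phosphatase 1 to glycogen, was at 82.4, 202, 1.65 and 1.92 CPM in GB-IL and between 0.935 and 2.65 CPM in DIO (log2 fold change 5.31, SE 1.11, adjusted p = 0.0293). The value rests on GB-IL livers 1 and 2, since livers 3 and 4 lay within the DIO range. *Pygb*, the brain form of glycogen phosphorylase, was at 9.77, 22.2, 12.4 and 6.71 CPM in GB-IL, all above the DIO livers at 4.55, 4.82, 4.68, 5.38 and 3.89 CPM (log2 fold change 1.45, SE 0.35, adjusted p = 0.0365). The liver form, *Pygl*, was lower in all 9 operated livers than in any DIO liver, at 537, 570.2, 617, 634 and 601 CPM in DIO, 60.8, 114, 363 and 469.5 CPM in GB-IL and 326, 351, 363, 376 and 258 CPM in RYGB. Relative to DIO it differed by -1.23 on the log2 scale in GB-IL (SE 0.44, adjusted p = 0.123) and -0.82 in RYGB (SE 0.40, adjusted p = 0.587). *Gyg*, the glycogenin that primes glycogen, showed a log2 difference of 1.09 in GB-IL (adjusted p = 0.0576).

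Of 18 tested genes of sugar transport and fructose use 1 rose in GB-IL (5.56%, beside 3.26% of all genes called in either direction). This was the aldose reductase *Akr1b3*, from 3.62 ± 0.348 (SD, n = 5) CPM to 8.34 ± 3.61 (SD, n = 4) CPM (log2 fold change 1.20, SE 0.29, adjusted p = 0.0366). Ketohexokinase (*Khk*) and triokinase (listed under the older symbol *Dak*), enzymes of fructose breakdown, were lower in all 9 operated livers than in any DIO liver. *Khk* was at 502, 412, 913, 716 and 687 CPM in DIO, 79.7, 169.8, 350.4 and 398 CPM in GB-IL and 365, 305, 209, 243 and 210.5 CPM in RYGB, with log2 fold changes of -1.37 (SE 0.40, adjusted p = 0.0724) and -1.28 (SE 0.37, adjusted p = 0.383). *Dak* was at 547, 540.2, 672, 734 and 762 CPM in DIO, 73.3, 238, 236 and 403 CPM in GB-IL and 514, 329, 262, 225 and 262 CPM in RYGB, with log2 fold changes of -1.46 (SE 0.38, adjusted p = 0.0523) and -1.03 (SE 0.35, adjusted p = 0.468). Of the 9 genes and the 119 tested list genes, 6 of 128 (4.69%) lay lower in every operated liver than in any DIO liver, beside 0.274% of all genes tested. These were *Pklr*, *Pygl*, *Khk*, *Dak*, *Pdhb* and *Pfkm*. In turn 0 of 128 lay higher in every operated liver, beside 0.372%. Because the 9 genes and the lists were chosen with earlier results of these data known, these shares are only a description. *Slc2a4* (GLUT4), the transporter of muscle and fat, was at 10.1 CPM in GB-IL liver 1, the liver with 1961 CPM of muscle markers, and at most 1.63 CPM elsewhere.

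Of 28 tested genes of the hormonal and transcriptional control of glucose output 3 rose in GB-IL (10.7%, beside 3.26% of all genes called in either direction). *Igfbp1*, a secreted binding protein of insulin-like growth factors whose transcription insulin lowers, was at 10216, 5514, 149.96 and 56.6 CPM in GB-IL and 109, 11.6, 20.8, 79.4 and 92.4 CPM in DIO (log2 fold change 5.99, SE 1.29, adjusted p = 0.0310). GB-IL livers 1 and 2, with the least *Pklr* and *Slc2a2*, held nearly all of it. *Sik1*, a kinase that restrains the CREB coactivators, was at 125, 124, 40.5 and 6.16 CPM in GB-IL and 12.1 ± 6.14 (SD, n = 5) CPM in DIO (log2 fold change 2.61, SE 0.63, adjusted p = 0.0394). *Nr4a1*, a nuclear receptor induced by cAMP, was at 10.9, 11.97, 2.88 and 1.62 CPM in GB-IL, 2.73, 5.77, 6.13, 6.37 and 3.74 CPM in RYGB and 1.94, 1.57, 1.93, 1.58 and 1.78 CPM in DIO. Relative to DIO it differed by 1.95 on the log2 scale in GB-IL (SE 0.48, adjusted p = 0.0415) and 1.49 in RYGB, in which all 5 livers exceeded the DIO livers (SE 0.46, adjusted p = 0.416). *Cebpb*, a transcription factor of the fasting and acute phase responses, showed a log2 difference of 0.76 in GB-IL (adjusted p = 0.223). *Avpr1a*, the hepatic vasopressin receptor, had 1.24 in RYGB (adjusted p = 0.468), and 4 of the 5 livers exceeded all DIO livers.

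**Figure D5:**
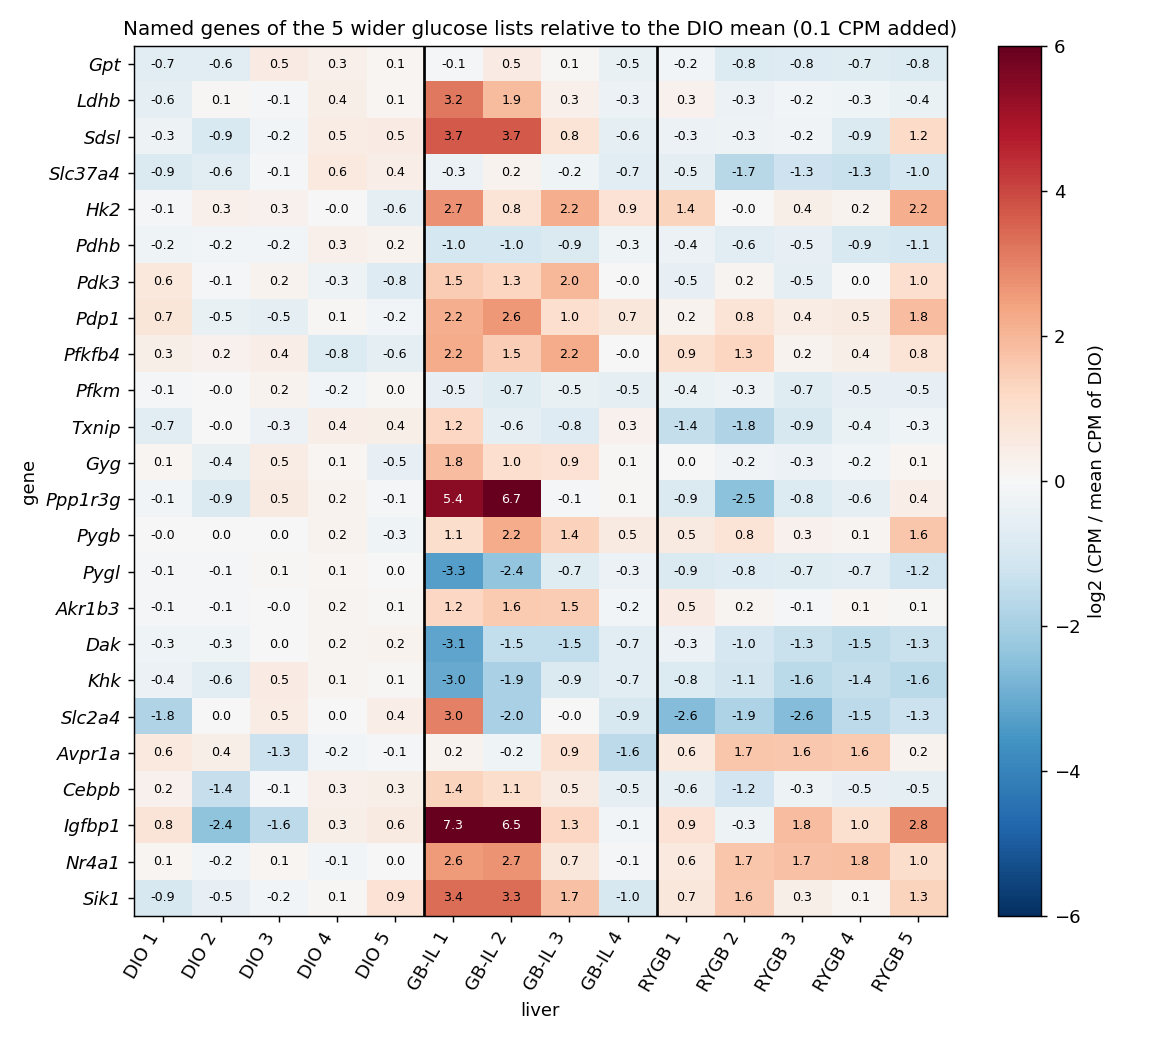
The 24 named genes of the 5 wider lists (rows) in each liver (columns) as the log2 ratio of CPM plus 0.1 to the DIO mean, with colours that end at 6. Igfbp1 reached 7.3 and 6.5 in GB-IL livers 1 and 2, and Pygl, Khk, Dak, Pdhb and Pfkm were below every DIO liver in all 9 operated livers.

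The calls of low genes in GB-IL stood beside the marker sums given above. *Hk2* was at 10.1 CPM in GB-IL liver 1, which held 125 CPM of neutrophil and 1961 CPM of muscle markers, at 6.91 CPM in GB-IL liver 3 and 6.85 CPM in RYGB liver 5, with 475 and 167 CPM of neutrophil markers. It also lay above every DIO liver in GB-IL livers 2 and 4 (2.65 and 2.73 CPM, with 65.8 and 7.65 CPM of neutrophil markers) and in RYGB livers 1 and 3 (3.83 and 1.87 CPM, with 14.5 and 9.49 CPM). *Akr1b3* was higher in GB-IL livers 1, 2 and 3 than in any DIO liver but not in liver 4, as were cholangiocyte markers. Of all 9 operated livers, *Akr1b3* lay above every DIO liver in 4 and below every DIO liver in 1. Cholangiocyte markers summed to 81.7, 88.0, 77.2, 97.8 and 87.8 CPM in the RYGB livers, beside at most 77.5 in DIO. Whether these genes were measured in hepatocytes was not tested. *Pklr*, *Slc2a2*, *Pygl* and *Khk* were low in GB-IL livers 1 and 2, in which hepatocyte markers summed on total counts lay within the DIO range. That sum does not show single markers. Of the 19 tested, 9 had a log2 fold change above 0 and 10 below 0 in GB-IL compared with DIO. *Alb* lay below every DIO liver in GB-IL livers 1 and 2. The part of hepatocyte content in these levels was not tested.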

How the data were processed

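RNA was measured in 14 livers (DIO, n = 5, GB-IL, n = 4, RYGB, n = 5). Per the methods and processing notes, the authors aligned reads to mm10 with TopHat2, counted them per gene with HTSeq and deposited 1 table of raw counts. Which versions, annotation and strand setting were used is not given in the sources used here, so reads of overlapping or antisense genes may be shared. The notes also list hg19. The labels name 2 stranded kits without saying which liver had which, and the methods describe amplification of RNA, and the part of the kit in any result was not tested.

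From the counts as deposited, edgeR 4.0.16 (R 4.3.3, limma 3.58.1) gave TMM-scaled CPM, a low-count filter (filterByExpr) and a quasi-likelihood fit of all 14 livers with a mean per group, and p-values were adjusted by Benjamini and Hochberg over 14252 genes at an FDR of 0.05. Intervals are 95%. The labels number the livers as replicates without naming animals, so p-values measure only the spread between these samples. Scripts were tested on simulated data. Heat map and likeness values were taken on log2 CPM. Exon lengths came from GENCODE M21 (24701 of 25212 gene IDs matched). Depth was 18223135 to 28656631 counts per liver, and the precision of a count is limited by this and by amplification.

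The 9 genes and all lists were chosen with earlier results of these data known. Some genes of the lists are not reported here and were left out of them. Named genes were the 9, the list genes past the FDR in any comparison, the 2 genes of each of the 5 lists with the smallest unadjusted p in each of the 3 comparisons, and for each of the 9 the gene most like it. Alternatives were RLE scaling, total counts, scaling to hepatocyte markers, no filter, a mean of at least 50 counts, DESeq2 1.42.0, voom with sample quality weights, a fit of the 2 groups compared, the replicate number as a block and leaving out each liver. Leaving out GB-IL livers 1 and 2 together was added after seeing the data.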

Additional observations from a re-analysis of the deposited data

Results flagged for a closer look

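In 5 of 99 groups of 4 or 5 livers examined (the 9 glucose genes and the 24 named genes, in 3 groups each), 1 liver lay far above the rest by Dixon's test, where chance alone marks about 1 group in 20. Of the 27 groups of the 9 glucose genes 1 was marked, *Gckr* in DIO, where liver 3 was at 274 CPM and the next at 221. Of the other marks 2 fell on RYGB liver 5, which had *Sdsl* at 20.4 CPM (next 7.82) and *Pdp1* at 3.53 CPM (next 1.73), and 167 CPM of neutrophil markers. *Slc2a4* was at 10.1 CPM in GB-IL liver 1 (next 1.15), in which skeletal muscle markers summed to 1961 CPM. *Gpt* was at 317 CPM in RYGB liver 1 (next 218). The part of these livers' other RNA in the marked values was not tested.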

How the results depend on the processing

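The 9 glucose genes kept 0 calls in all 3 comparisons under each scaling, filter and the replicate block. In GB-IL compared with DIO, DESeq2 and voom with sample quality weights each called 1 of them (*Pklr*) and leaving out 1 liver gave 0 to 3. In RYGB compared with DIO, voom called 4 and the fit of 2 groups 1. Between GB-IL and RYGB, leaving out 1 liver gave 0 to 2. The cause of these differences was not tested. For GB-IL against DIO, the 11 calls among the wider lists became 30 with DESeq2, 13 with voom, 6 with total counts, 0 with the fit of 2 groups, 0 with the replicate block, 0 without GB-IL livers 1 and 2 together, and 0 to 53 when 1 liver was left out. In RYGB compared with DIO the 0 calls became 2 with DESeq2, 24 with voom and 2 with the fit of 2 groups. Between GB-IL and RYGB they became 12 with DESeq2, 1 with no filter and 0 to 33 when 1 liver was left out. Over all genes, the 465 calls in GB-IL became 1347 with DESeq2, 0 with the fit of 2 groups and 0 to 3572 when 1 liver was left out, and the 0 calls in RYGB became 1690 with voom, 94 with DESeq2 and 33 with the fit of 2 groups.

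The sign turned for *Pcx* in GB-IL compared with DIO, where the main fit gave 0.00184 (SE 0.21). The difference was -0.00868 with RLE scaling, -0.0362 with total counts, -0.0205 with no filter and -0.0184 with a mean of at least 50 counts. It was -0.0122 with DESeq2, -0.00531 with the fit of 2 groups and -0.0845 to 0.102 when 1 liver was left out. Further from 0 were -0.19 with voom and -0.21 without GB-IL livers 1 and 2. *G6pc* in RYGB compared with DIO was -0.10 with voom and -0.12 to 0.37 when 1 liver was left out. Between GB-IL and RYGB, without GB-IL livers 1 and 2, *Ppargc1a* was -0.48, *Pklr* 0.15 and *Slc2a2* 0.11. Scaling to hepatocyte markers moved the median log2 fold change of all genes in RYGB from 0.01 to 0.13.

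Correlations between livers showed no general pairing by replicate number. Of 13 same-numbered pairs 2 had a correlation over 0.1 (range -0.358 to 0.370), and 1 of 14 livers correlated best with its own number. Such correlations cannot exclude a pairing. With the replicate block the calls over all genes in GB-IL went from 465 to 1. Among the 9 genes, *Pklr* and *Slc2a2* in GB-IL livers 1 and 2 rest on 70 to 190 counts each.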
